A study of Mus musculus with 8 samples.

Results

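Gfi1, Gfi1b and 4 genes of the repressor complex that they recruit (Kdm1a, Rcor1, Hdac1 and Hdac2) were followed through the embryonic blood-forming tissue of the mouse. These 6 of the 28014 genes in the count table were listed by name, with no threshold on their measured values but with earlier results of these data known, and all 6 were present. The source was the aorta-gonad-mesonephros region (AGM) at embryonic day 10.5, from which cells carrying the endothelial and blood surface protein CD31 were sorted and profiled by CITE-seq, a single-cell method that counts RNA molecules and antibody tags in the same cell. There were 5 libraries of wildtype C57BL/6 embryos (WT) and 3 libraries of Meis1-flox/VE-Cre embryos, labelled as Meis1 knockouts, in which Cre under the VE-cadherin (Cdh5) promoter deletes an exon of Meis1 in endothelial cells and therefore also in the cells that descend from them. Each library was a pool of 2 to 5 embryos, so a library and not a cell was the unit of every test, and no label says that the genotypes were collected together. Cell names of WT 5 in the count table begin with a prefix of their own (Mf). The labels call this library WT, and whether its embryos carried a floxed Meis1 allele is not given in the sources used here. In its knockout experiments the study also uses WT for littermates without Cre, some of them floxed. The 10 deposited cell types were 4 groups of venous endothelium (vEC_1 to vEC_4), arterial endothelium (aEC), endothelium thought to precede the hemogenic state (pre-HE), cells turning from endothelial to hematopoietic (EHT), erythro-myeloid progenitors (EMP), Myeloid and Megakaryocytes. The study regards EMP and the mature blood cells of this tissue as likely of yolk sac origin, so comparisons of EHT with them are between cell types and follow no line of descent. These names were given by the study to clusters of the same RNA with Gfi1 among the genes looked at, so a Gfi1 difference between EHT and its neighbours is partly built into the names.

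Gfi1 and Gfi1b are closely related zinc finger repressors that bind DNA with an AATC core and silence genes through a short amino-terminal SNAG domain. The SNAG domain docks on Kdm1a (LSD1), which removes methyl groups from lysine 4 of histone H3, while Rcor1 (CoREST) holds Kdm1a on the nucleosome and the deacetylases Hdac1 and Hdac2 remove acetyl groups. In the emerging blood cells of the aorta the pair, switched on by Runx1, is known for turning off the endothelial programme. Later, Gfi1 is known from stem cells, lymphoid cells and granulocytes, and Gfi1b from erythroid cells and megakaryocytes, and each is known to repress its own gene and that of the other.

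The genes lie apart in the genome (GRCm38.p6, the patch release of mm10). Gfi1 is on the minus strand at chr5:107716655-107725805 and Gfi1b on the minus strand at chr2:28609450-28621982. Kdm1a is at chr4:136550533-136602787 on the minus strand and Rcor1 at chr12:111039367-111115902 on the plus strand, while Hdac1 spans chr4:129516104-129542646 and Hdac2 chr10:36974297-37001889 on the plus strand. Because the AATC core is the element by which Gfi1 and Gfi1b read DNA, including their own promoters, the 250 bases upstream of the first RefSeq start of each were searched for AATC on either strand (GATT on the gene strand). Both are shown from 5′ to 3′ on the minus strand, with the cores in capitals, from chr2:28621983-28622232 for Gfi1b and chr5:107725806-107726055 for Gfi1.
Gfi1b: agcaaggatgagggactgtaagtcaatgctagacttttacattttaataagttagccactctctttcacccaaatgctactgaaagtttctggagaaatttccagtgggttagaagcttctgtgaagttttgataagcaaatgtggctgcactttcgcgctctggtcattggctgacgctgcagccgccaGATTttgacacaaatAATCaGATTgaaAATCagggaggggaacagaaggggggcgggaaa
Gfi1: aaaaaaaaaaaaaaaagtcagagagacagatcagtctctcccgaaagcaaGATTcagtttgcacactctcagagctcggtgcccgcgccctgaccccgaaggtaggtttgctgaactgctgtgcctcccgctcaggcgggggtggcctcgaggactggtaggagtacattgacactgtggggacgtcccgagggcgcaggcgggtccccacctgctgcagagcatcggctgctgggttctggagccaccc
The Gfi1b window held 4 cores, beginning 60, 45, 40 and 33 bases before the start, and 7.04% of all 32851 promoter windows of this length held at least 4. The Gfi1 window held 1, beginning 200 bases before the start, as 69% of windows did at least, and a window at a second listed Gfi1 start (chr5:107724344-107724593) held none. The Runx1 letters TGTGGT, searched on both strands and present in 14% of windows, were found in neither of the windows shown. Of the co-factor genes, Kdm1a had 1 AATC core, and Rcor1 and Hdac2 had 0; no promoter window was at hand for Hdac1. These matches describe letters in short windows and not binding.

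The 8 libraries held 15168 cells. Median RNA molecules (unique molecular identifiers, UMIs) per cell were 26572 to 28553 in WT 1 to WT 4, but 12721 in WT 5 and 9612 to 14895 in the Meis1-flox/VE-Cre libraries, so depth and genotype overlapped in all but WT 5. The Cre row, which the count table names CreERT2, had 0 UMIs in all 5 WT libraries and 12, 3 and 19 in the Meis1-flox/VE-Cre libraries. Meis1 itself stood at 13.7 to 26.5 CPM (a gene's UMIs scaled to a common total) over all WT cells and at 9.16 to 13.8 CPM over all Meis1-flox/VE-Cre cells, although a 3′ tag lies outside the deleted exon and checks the deletion only weakly. By type it was hardly lower in pre-HE, at 31.8 ± 14.6 CPM in WT and 30.8 ± 21.8 in Meis1-flox/VE-Cre (SD). In aEC it was higher, at 1.18 ± 0.27 and 1.79 ± 0.54 CPM. The means of all other types were lower in Meis1-flox/VE-Cre, for example 65.6 ± 7.93 and 27.6 ± 7.95 CPM in EMP. The megakaryocyte and myeloid markers were highest where the names place them in WT: the summed CPM of 5 megakaryocyte genes (Pf4, Itga2b, Gp1bb, Gp9, Ppbp) was 20479 to 39567 in WT Megakaryocytes and 71.4 to 82.4 in WT EHT. Likewise 6 myeloid genes summed to 2120 to 3384 CPM in WT Myeloid and 286 to 430 in WT EHT. Other lists separated the names less as sums. The 5 blood-forming genes that mark EHT (Runx1, Kit, Spi1, Myb, Cd34) summed to 1084 to 1229 CPM in WT EHT and to 908 to 1316 in WT pre-HE. Their sum was also 739 to 917 CPM in WT aEC. Runx1 alone did separate EHT from pre-HE, at 161 to 210 CPM in WT EHT and 0 to 28.0 in WT pre-HE. In Meis1-flox/VE-Cre Megakaryocytes 6 erythroid genes summed to 8201 to 36622 CPM beside 12040.2 to 21984 for the megakaryocyte genes. In all, 33 cell barcodes occurred in 2 libraries. A doublet caller marked 0.547% of cells overall and 3.07% of EHT.

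Gfi1 was an EHT gene. In EHT its level was 51.1, 58.2, 30.1, 62.2 and 32.6 CPM in WT 1 to WT 5, a mean of 46.8 ± 14.7 (SD, n = 5). In EMP the same libraries gave 4.29, 1.40, 0.484, 0.706 and 0.741 CPM, in Myeloid 1.10, 0.376, 0, 0.243 and 0.857 CPM, and the 4 venous groups and aEC averaged at most 0.128 CPM. Every EHT value lay above every value of the other 9 types, and below EHT all neighbours in the order of levels (EMP, pre-HE, Myeloid, Megakaryocytes, then endothelium) overlapped. From pooled WT counts, 454 Gfi1 UMIs in EHT against 26 in EMP, Gfi1 was 33.4-fold higher in EHT (95% counting interval 22.5 to 51.7). WT 1 held 13 of those 26 UMIs, and without it the ratio was 54.7 (31.6 to 104). Against Myeloid it was 80.9-fold higher (54.9 to 124). Intervals of this kind cover counting error only.

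In pre-HE, the endothelial state before EHT, Gfi1 was seen in 1 of 5 WT libraries, with 6 UMIs in 3 of the 87 pre-HE cells of WT 4 and at most 3 in a cell. None of those 3 cells had a Runx1 UMI. The other 4 WT libraries, with 11 to 39 pre-HE cells, were at 0, which at their depth allows up to 5.53 to 19.4 CPM. Pooled over WT, Gfi1 was 19.0-fold higher in EHT than in pre-HE (8.68 to 52.1), and without WT 4, with 0 in pre-HE, at least 15.6-fold higher. Megakaryocytes gave 0 Gfi1 UMIs in 4 WT libraries and 4 UMIs in WT 5 (1.66 CPM).

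Gfi1b followed another order, with Megakaryocytes first. There its level was 182, 119, 101, 82.8 and 117 CPM in WT 1 to WT 5, with a mean of 120 ± 37.5 (SD, n = 5; WT 3 had only 5 such cells and stayed out of the tests). EMP held 23.8, 38.4, 20.3, 28.4 and 48.6 CPM and EHT 30.4, 18.2, 17.6, 11.3 and 23.9 CPM. Myeloid held 1.96, 1.94, 2.23, 0.485 and 7.89 CPM. All Megakaryocytes values lay above all EMP values, EMP and EHT overlapped, and every EHT value lay above every Myeloid value. No Gfi1b UMI occurred among the 2855167 UMIs of pre-HE in all 8 libraries, and against the 3 counts that an observed 0 allows in the WT pool, Gfi1b was at least 15.6-fold higher in EHT. In endothelium the WT means were at most 0.224 CPM.

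**Figure D1:**
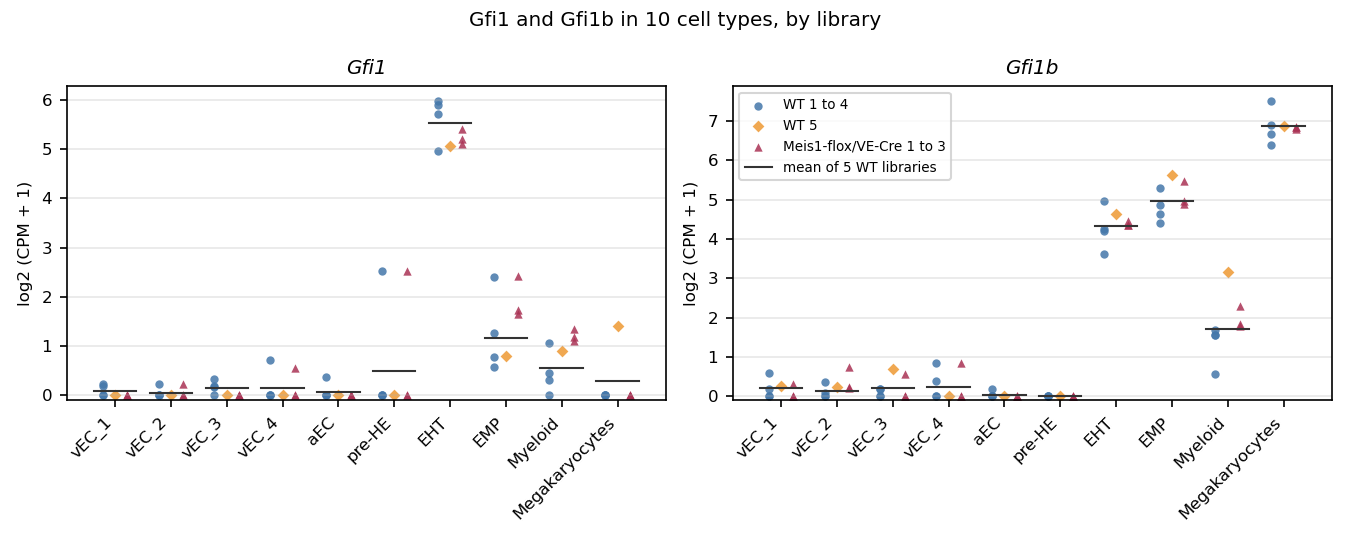
Level of Gfi1 (left) and Gfi1b (right) as log2 (CPM + 1) in each of the 10 deposited cell types; each point is a library (circles WT 1 to 4, diamonds WT 5, triangles Meis1-flox/VE-Cre 1 to 3) and bars are WT means of the plotted values. Gfi1 stood high in EHT alone, at 30.1 to 62.2 CPM in WT, while Gfi1b was shared by EHT, EMP and Megakaryocytes, with 82.8 to 182 CPM in the last.

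Set against each other, the Gfi1 share of their UMIs was highest in EHT and lower in the other blood cell types. Of all Gfi1 and Gfi1b UMIs in WT EHT, 70.9% were Gfi1 (95% Clopper-Pearson interval 67.3 to 74.4), with libraries at 62.7%, 76.2%, 63.2%, 84.6% and 57.7%. In EMP the Gfi1 share was 4.36% (2.87 to 6.33), or 2.54% (1.36 to 4.31) without WT 1, in Megakaryocytes 0.541% (0.147 to 1.38) and in Myeloid 19.7% (13.4 to 27.4). The lowest EHT library thus lay above the highest EMP library, WT 1 with 15.3%. In the Meis1-flox/VE-Cre libraries the share was 65.4% (56.4 to 73.6) in EHT and 7.88% (4.81 to 12.04) in EMP. Molecules tagged at the 3′ end do not scale with transcript length, but capture can differ between genes, so the share is informative between cell types and not as a ratio of the pair.

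The same order appeared in the fits between neighbouring types, made within the 5 WT libraries over all genes with edgeR's quasi-likelihood test and Benjamini-Hochberg adjustment at 0.1. The clusters were drawn from the same RNA, so these fits give sizes and errors and are no independent proof that types differ. Between EHT and EMP, Gfi1 fell by 4.95 on the log2 scale (SE 0.27, adjusted p = 2.27e-09) and Gfi1b rose by 0.78 (SE 0.20, adjusted p = 0.00447). In CPM, WT 1 alone went the other way for Gfi1b. Of 6 members tested there, 5 were called, 1 higher and 4 lower, beside 56.4% of all genes (27.6% higher and 28.8% lower). Relative to EMP, Gfi1b fell by 3.69 in Myeloid (SE 0.29, adjusted p = 1.57e-06) and rose by 1.89 in Megakaryocytes (SE 0.27, adjusted p = 3.47e-04). Between pre-HE and EHT both Gfi1 and Gfi1b rose, the only 2 of 6 members called beside 61.6% of all genes (31.6% higher). For Gfi1 the fit gave 4.42 (SE 0.41, adjusted p = 3.78e-11) and rested on the 6 pre-HE UMIs of WT 4; leaving out libraries in turn moved it from 4.07 to 8.50. For Gfi1b, with 0 in pre-HE, the fitted size depends on the prior count and the bound given above stands instead.

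Single cells showed how far the pair was shared within EHT. To read all cells at the same depth, each was thinned to 5000 UMIs, which left out 3 of 488 EHT cells. Of the remaining 485, Gfi1 was seen in 91 (18.8%, 15.4 to 22.5) and Gfi1b in 43 (8.87%, 6.49 to 11.8). By library the Gfi1 share ran from 16.1% to 26.9% in WT and was 14.3% or more in Meis1-flox/VE-Cre, inside or just below the WT range, and the Gfi1b share ran from 4.48% to 15.6% in WT and was 7.14% or more in Meis1-flox/VE-Cre. In the 5 endothelial types, which should lack both, the shares at the same depth were at most 0.0371% for Gfi1 and 0.149% for Gfi1b, so detection in EHT stood above free RNA in the droplets.

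Cells with both were few: 4 EHT cells, where independent detection within each library would give 7.91, a ratio of 0.51. The counting interval of that ratio, 0.14 to 1.29, includes 1. With all UMIs kept, 207 cells had Gfi1, 132 had Gfi1b and 48 had both, against 59.7 for independent detection, a ratio of 0.80. Each of the 8 libraries then lay below its own independent value, for example 13 against 16.03 in WT 1, 9 against 10.4 in WT 4 and 3 against 3.50 in Meis1-flox/VE-Cre 3. After thinning, 2 of 8 libraries lay above theirs, each with 1 cell. These are relations across cells that share a library and its depth, given as a description with no test.

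**Figure D2:**
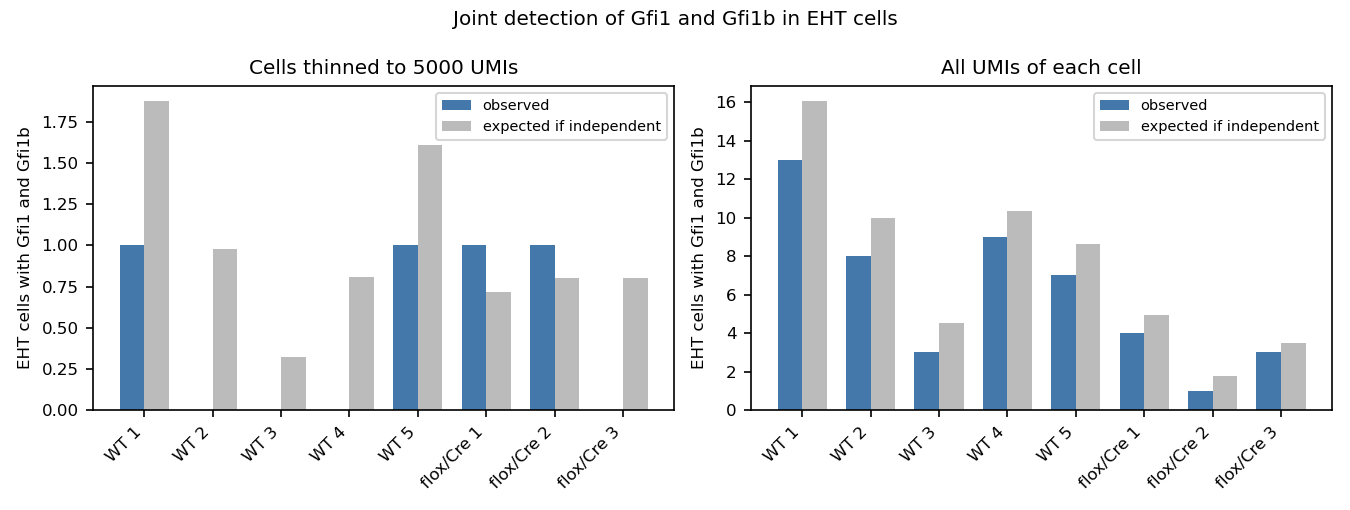
Number of EHT cells with both Gfi1 and Gfi1b in each library (blue) beside the number that independent detection would give (grey), after thinning to 5000 UMIs (left) and with all UMIs (right). With all UMIs the observed number lay below the grey bar in 8 of 8 libraries, by at most about 3 cells, and after thinning counts were 0 or 1.

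Outside EHT, sharing was rarer. In EMP, 9 of 747 cells had Gfi1, 109 (14.6%) had Gfi1b and 0 had both, where 1.15 would be independent. In Megakaryocytes 157 of 354 cells had Gfi1b (44.4%) and 0 had Gfi1, which allows a share of up to 0.847%. Myeloid went the other way, since 1 cell had both against 0.145 for independent detection, and with all UMIs 11 cells against 2.33, above the independent value in 5 of 8 libraries. Those 11 cells were 0.459% of 2397 Myeloid cells, and the doublet caller marked 2.09% of that type, whose part in the count was not tested.

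Runx1 is the known activator of both genes in this transition. In the thinned EHT cells it was seen in 48 of 87 cells with Gfi1 alone (55.2%, 44.1 to 65.9), in 24 of 39 with Gfi1b alone (61.5%, 44.6 to 76.6) and in 188 of 355 with neither (53.0%, 47.6 to 58.2). These shares pool the cells of 8 libraries and are given as a description, with no test. By library, Runx1 was at 180 ± 68.9 CPM in EHT cells with a Gfi1 UMI and 182 ± 36.7 in those without, higher in 2 of 8 libraries, and at 270 ± 70.2 CPM with a Gfi1b UMI and 187 ± 6.78 without, higher in 4 of 4 libraries that had enough such cells. Median depth before thinning was 18947, 22907 and 17635 UMIs in the same order.

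By summed marker lists, EHT cells with Gfi1 held more endothelial and less myeloid RNA than the other EHT cells, and EHT cells with Gfi1b the reverse. Endothelial genes (Cdh5, Pecam1, Eng, Kdr, Tek) summed to 532 ± 101 CPM in cells with a Gfi1 UMI and 307 ± 73.8 in cells without (SD over 8 libraries, cells thinned), higher in 8 of 8 libraries. Cdh5, the VE-cadherin of endothelial junctions, was at 243 against 118 CPM, also higher in 8 of 8. The rest of the list followed less evenly: Kdr and Tek were higher in 7 of 8, Pecam1 in 5 of 8, and Eng, at 54.3 against 52.1 CPM, in 3 of 8. Myeloid genes (Fcer1g, Tyrobp, Csf1r, Lyz2, Mpo, Ptprc) summed to 224 ± 106 against 427 ± 69.0 CPM and were lower in 8 of 8 libraries. Within that list Ptprc, which encodes the pan-leukocyte protein CD45, was at 14.1 against 46.0 CPM and the Fc receptor chain Fcer1g at 48.2 against 177 CPM, each lower in every library. Tyrobp and Mpo were each higher in 1 of 8, but the lysozyme gene Lyz2, at 101.5 against 69.7 CPM, was higher in 6 of 8, and Csf1r stood at 8.33 against 4.10 CPM.

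For Gfi1b, in the 4 libraries with at least 5 such cells, endothelial genes summed to 230 ± 38.3 CPM in 30 cells with a Gfi1b UMI and 357 ± 71.6 in 272 without, lower in 4 of 4. Arterial genes (Gja5, Dll4, Efnb2, Hey1) summed to 10.0 against 64.5 CPM, and myeloid genes to 630 ± 119 against 397 ± 47.5 CPM, higher in 4 of 4. With all UMIs all 8 libraries could be read, and endothelial genes were lower in 8 of 8 (269 against 390 CPM), arterial genes lower in 8 of 8 (12.3 against 62.8 CPM) and myeloid genes higher in 7 of 8 (536 against 356 CPM). For Gfi1, arterial genes in thinned cells were at 88.2 ± 70.3 against 44.8 ± 10.8 CPM, higher in 6 of 8. With all UMIs they were at 80.1 against 22.3 CPM, higher in 8 of 8, endothelial genes higher in 7 of 8 and myeloid genes lower in 7 of 8. The list of 5 blood-forming genes that marks EHT was at 1161 against 1157 CPM by Gfi1, higher in 3 of 8, and at 1305 ± 190 against 1110 ± 76.7 CPM by Gfi1b, higher in 3 of 4 (4 of 8 with all UMIs). Choosing cells by a UMI of a gene also chooses among cell states and depths, so these values are descriptions, with no test.

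**Figure D3:**
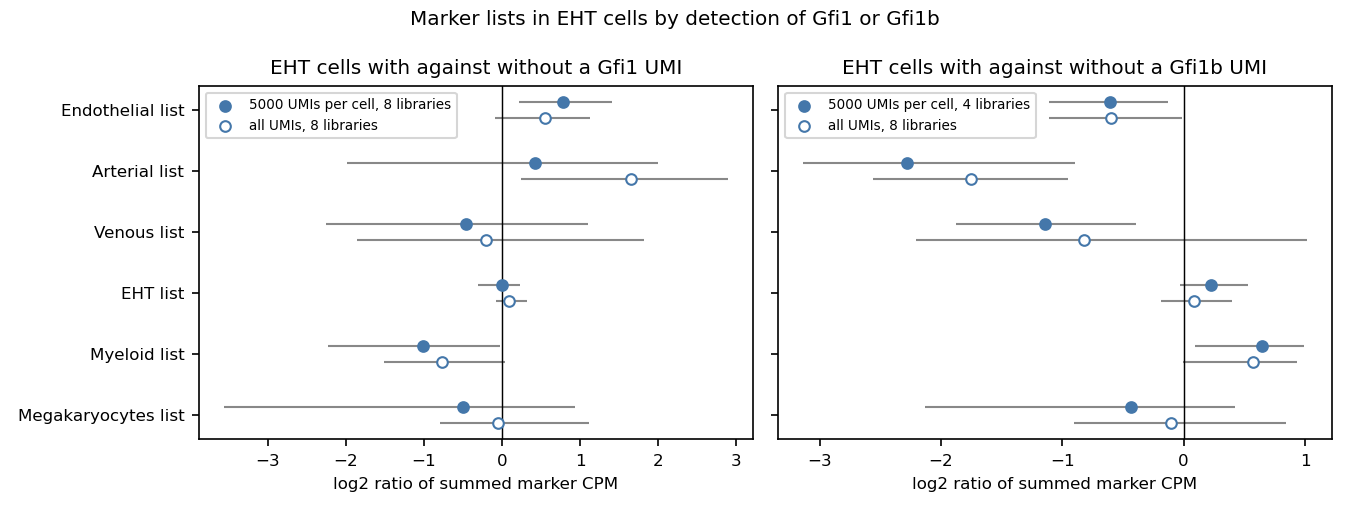
log2 ratio of summed marker CPM, with 10 CPM added to each sum, between EHT cells with and without a Gfi1 UMI (left) and a Gfi1b UMI (right); points are means over libraries, filled after thinning to 5000 UMIs and open with all UMIs, and lines run from the lowest to the highest library. Endothelial and arterial lists sat to the right of 0 for Gfi1 and to the left for Gfi1b, and the myeloid list the other way round, although single libraries of the thinned arterial list for Gfi1 ran from -1.98 to 2.00. The EHT list averaged 0.00 for Gfi1 and 0.22 for Gfi1b after thinning.

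In EMP, cells with a Gfi1b UMI carried more megakaryocyte RNA (119 against 89.7 CPM summed, higher in 6 of 7 libraries) and less myeloid RNA (1326 against 1834 CPM, lower in 7 of 7). The antibody tags, which were read at the protein level and took no part in the clustering, showed no called difference in 18 comparisons (exact sign-flip tests over libraries, two-sided, adjusted p = 0.375 or more in each). The smallest p of an exact sign-flip test is 0.0156 over 7 libraries and 0.125 over 4. A tag on its own could therefore not pass adjustment over 18 comparisons. These tests cannot tell whether the proteins differed. In EHT cells with Gfi1, the blood surface proteins CD41, CD43 and CD27 had log2 ratios of -0.50, -0.52 and -0.53 over 7 libraries, with exact p = 0.0625, 0.0781 and 0.0469 before adjustment. As centred log ratios CD41 was at -0.04 and CD27 at -0.10, each higher in 4 of 7, and by median tag counts CD43 was at -1.10, lower in 7 of 7 (adjusted p = 0.188 by exact sign-flip tests). In EHT cells with Gfi1b, CD43 was at 0.71, higher in 4 of 4 libraries, with an exact p of 0.125 that is the smallest 4 libraries can give. WT 4 had no tag counts and the CD44 tag was missing from WT 1 to WT 4.

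The co-factor genes were read in every cell type and varied far less than Gfi1 and Gfi1b. Kdm1a ran from 211 ± 14.4 CPM in vEC_4 to 89.9 ± 5.71 in Myeloid (SD, 5 WT libraries), with EHT at 173 ± 15.1 and EMP at 121 ± 17.6. Its WT values in EHT, from 152 to 194, lay above all in EMP, from 99.0 to 147, whereas each other pair of neighbours in the order overlapped. Hdac2 ran from 142 ± 26.5 CPM in pre-HE to 68.6 ± 4.07 in Myeloid, with EHT at 131 ± 11.9 and EMP at 89.9 ± 12.6. Rcor1 had the narrowest range, from 62.8 ± 7.88 CPM in pre-HE to 41.5 ± 4.87 in Myeloid, and all its neighbouring types overlapped. Hdac1 ran from 89.3 ± 28.8 CPM in vEC_4 to 54.4 ± 18.8 in Megakaryocytes, and WT 5 lay above the other WT libraries in each type.

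The enzymes of the complex were lower in EMP than in EHT. Between EHT and EMP in WT, Kdm1a fell by 0.43 (SE 0.07, edgeR adjusted p = 2.32e-04), Hdac2 by 0.43 (SE 0.07, edgeR adjusted p = 6.10e-05) and Hdac1 by 0.18 (SE 0.08, edgeR adjusted p = 0.0661), on the log2 scale. The Hdac1 call was the weakest, and was lost without WT 2 (-0.16), WT 3 (-0.13) or WT 5 (-0.20). Rcor1 was at -0.22 (SE 0.12, edgeR adjusted p = 0.150) and was not called. Between EMP and Myeloid, Kdm1a fell by 0.38 and Hdac2 by 0.36, so that with Gfi1b 3 of 5 members tested were called, all lower, beside 61.1% of all genes (29% lower). Between EMP and Megakaryocytes only Gfi1b was called of 5, beside 58.9% of all genes (29.5% higher). Between aEC and pre-HE none of 4 members tested was called, beside 42.1% of all genes, with edgeR's adjusted p at 0.184 or more and 0 of the 4 at an unadjusted p under 0.05. Since the clusters were drawn on the same RNA, the members' shares are read against these and not against 0.

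**Figure D4:**
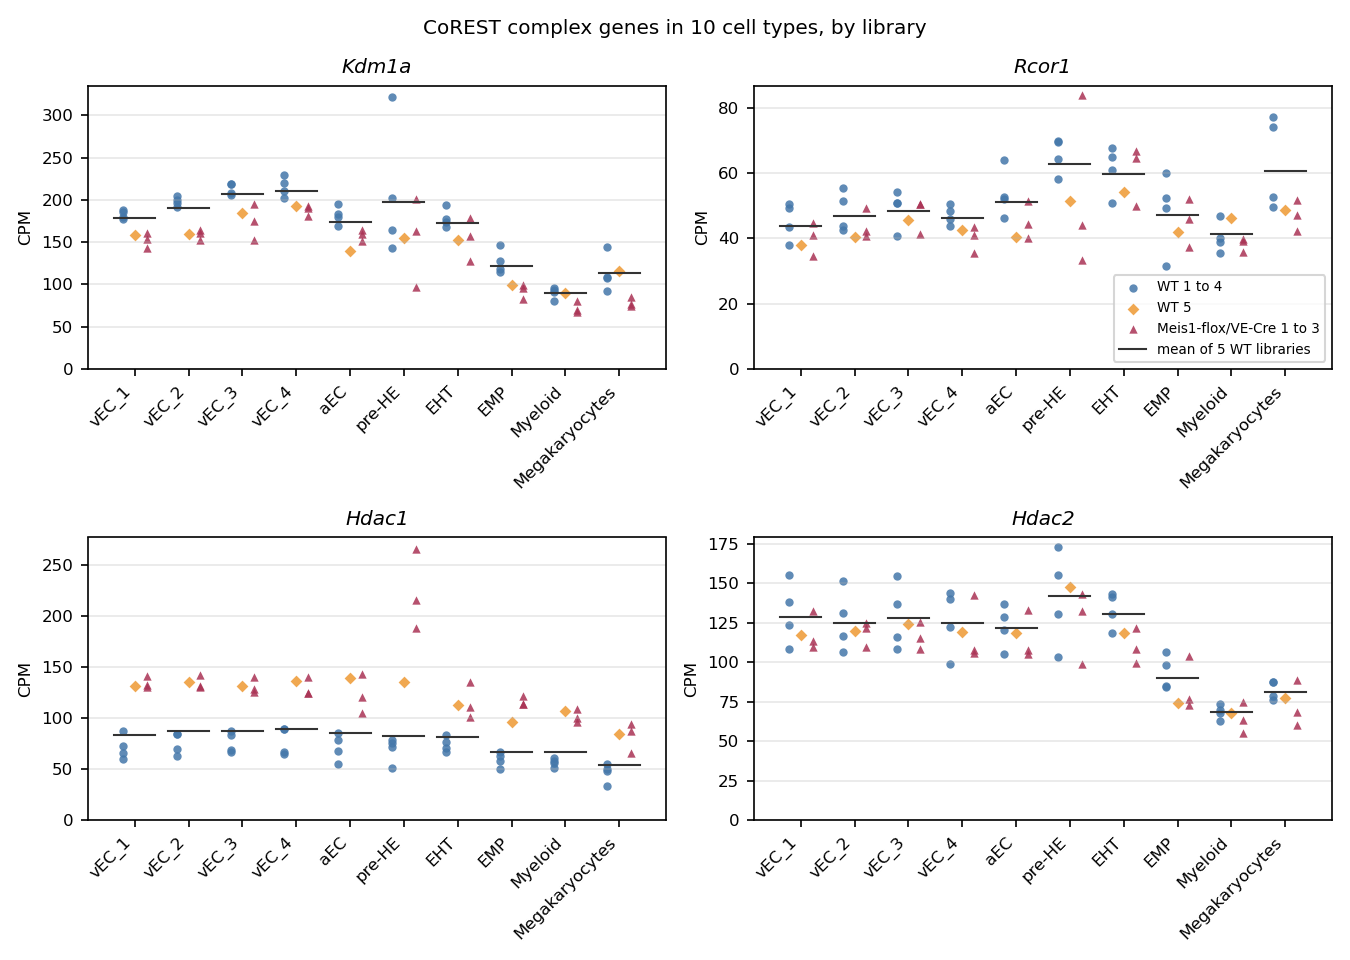
Level in CPM of Kdm1a, Rcor1, Hdac1 and Hdac2 in each of the 10 deposited cell types, with points for libraries as in the plot of Gfi1 and Gfi1b and bars for WT means. Kdm1a and Hdac2 stepped down between EHT and EMP, and Hdac1 was higher in WT 5 and the Meis1-flox/VE-Cre libraries than in WT 1 to 4 in every type.

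Around the members, 10 further CoREST and LSD1 partners were followed over the same steps. Between EHT and EMP, 6 of 9 tested were called, 1 higher and 5 lower, near the 56.4% of all genes, with a median log2 change of -0.34 beside -0.01 for all genes. The lowest was Hmg20b (BRAF35), a DNA-binding subunit of the complex, at -0.84 (SE 0.07), followed by the zinc finger partner Zmym2 at -0.68 (SE 0.13) and the CoREST paralogue Rcor2 at -0.39 (SE 0.16). Between EMP and Megakaryocytes 5 of 9 were called, all higher (beside 58.9% of all genes; median 0.46 beside -0.02), with Hmg20b at 0.99 (SE 0.10) and Phf21a, which reads unmethylated histone H3, at 0.59 (SE 0.24). Between pre-HE and EHT 6 of 9 were called, 3 in each direction (beside 61.6%), and between aEC and pre-HE 4 of 8 (beside 42.1%), with Gse1 at 1.32 (SE 0.30) and Zmym2 at 0.81 (SE 0.19). Between EMP and Myeloid, 4 of 10 were called (beside 61.1%), with Gse1 at -1.98 (SE 0.13) and Rcor2 at -1.43 (SE 0.18) the lowest.

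The other class I deacetylases and the complexes that share Hdac1 and Hdac2 (NuRD and Sin3, 17 genes) were called in 5, 9, 9 and 9 of 17 tested genes between aEC and pre-HE, pre-HE and EHT, EHT and EMP, and EMP and Myeloid, and in 11 of 16 between EMP and Megakaryocytes. All genes were called at 42.1%, 61.6%, 56.4%, 61.1% and 58.9% in the same order, so these counts say nothing particular about the complexes. Their largest moves belonged to Chd3, a NuRD remodeller, at 2.15 (SE 0.16) between aEC and pre-HE, -2.43 (SE 0.19) between pre-HE and EHT and -2.49 (SE 0.26) between EHT and EMP. Hdac3 was at 0.38 (SE 0.11) between EHT and EMP, and Chd4 at -0.42 (SE 0.06). Of 4 other SNAG factors only Snai1, a repressor known from epithelial and endothelial transitions, was abundant enough to test at any step, and it fell by 1.43 between aEC and pre-HE (SE 0.33, edgeR adjusted p = 5.58e-04). Among 7 other co-factors, all 3 tested between aEC and pre-HE rose, led by Cbfa2t3 (ETO2), a co-repressor of blood genes, at 2.60 (SE 0.19), and the LIM protein Ajuba was at -2.13 (SE 0.27) between pre-HE and EHT and at -3.35 (SE 0.36) between EHT and EMP.

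Genes known as targets of Gfi1 or Gfi1b (15 genes) moved in both directions at each step. Between pre-HE and EHT, where both repressors rose, 7 of 10 tested were called (beside 61.6% of all genes), 3 higher and 4 lower, with a median of -0.18 beside 0.04 for all genes. The inhibitor Id2 fell by 2.18 (SE 0.24) and the TGF-beta co-receptor Tgfbr3 by 2.67 (SE 0.27), whereas Hoxa9 rose by 1.71 (SE 0.18) and Meis1 by 1.35 (SE 0.20). Between EHT and EMP, where Gfi1 fell, 5 of 12 rose and 4 fell, beside 56.4% of all genes called. The G-protein regulator Rgs18 rose by 2.18 (SE 0.12), the apoptosis gene Pmaip1 by 1.88 (SE 0.23) and the myeloid factor Irf8 by 1.60 (SE 0.20), against falls of 4.84 for Hoxa9 (SE 0.25) and 1.76 for Id2 (SE 0.34). In Megakaryocytes, where Gfi1b was highest, 6 of 13 rose relative to EMP and 3 fell (beside 58.9% of all genes called), among them Gata2, a progenitor factor known to be repressed by Gfi1b, at -1.67 (SE 0.27), and Pmaip1 at -4.66 (SE 0.41), while Rgs18 rose by 1.93 (SE 0.15). Between EMP and Myeloid, where Gfi1b fell, 6 of 14 rose, with Irf8 at 3.04 (SE 0.12), and 5 fell, with Gata2 at -3.70 (SE 0.31), beside 61.1% of all genes called. All 9 tested between aEC and pre-HE were called, 7 higher and 2 lower (beside 42.1% of all genes), at a step whose pre-HE cells held 6 Gfi1 and 0 Gfi1b UMIs in WT. Runx1 rose by 5.62 (SE 0.34) between pre-HE and EHT.

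The genes whose level over the 49 WT sums of library and cell type was most like that of Gfi1, among 9759 genes, were Cited1 (Pearson r = 0.88), Serpina3g (0.87) and Hlf (0.87), on log2 (CPM + 1). Hlf, a transcription factor known from blood stem cells, averaged 101 CPM in WT EHT and at most 4.20 elsewhere. For Gfi1b they included Tuba8 (0.98) and Smim5 (0.97). Between Gfi1 and Gfi1b themselves r was 0.45, and between Kdm1a and Hdac2 0.81. Rcor1 was most like Mllt3 (0.71). Sums of a library share embryos and depth, so r is a description of 49 values that are not independent.

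Whether Meis1 loss changed these genes was asked in each type, with edgeR over the 5 WT libraries and the 3 that carried the deletion. Gfi1 in EHT was 35.8, 33.3 and 41.6 CPM in Meis1-flox/VE-Cre 1 to 3, inside the WT range of 30.1 to 62.2. The log2 difference was -0.32 (SE 0.25, edgeR adjusted p = 0.737), and it turned to 0.20, 0.18 and 0.17 with a depth covariate, with depth class as a covariate and against WT 5 alone. Without such terms none of 6 members was called in EHT, beside 0.127% of all genes; at an unadjusted p under 0.05 only Hdac1 stood there. Gfi1b in EHT was 19.4, 20.8 and 19.4 CPM, again inside the WT range, with a difference of 0.00 (SE 0.32, edgeR adjusted p = 0.999), and -0.33, -0.29 and -0.29 under the same depth settings. The myeloid list (6 markers, none at 0) summed to 463 to 538 CPM in Meis1-flox/VE-Cre EHT against 286 to 430 in WT. Megakaryocyte genes (none at 0) were at 42.6 to 58.3 against 71.4 to 82.4 CPM and mast cell genes (Mcpt8 and Cma1 at 0) at 8.34 to 234 against 0 to 2.41 CPM, all 3 lists without overlap, and their part in these values was not tested.

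In the blood cell types Gfi1b was not called either. Its EMP values were 30.2, 43.3 and 28.4 CPM, a log2 difference of 0.13 (SE 0.26, edgeR adjusted p = 0.837; -0.58, -0.50 and -0.49 under the depth settings), and its Megakaryocytes values 114, 114 and 110 CPM, a difference of -0.13 (SE 0.26, edgeR adjusted p = 0.925). Both sets lay inside the WT ranges. Erythroid genes (6 markers, none at 0) summed to 313 to 1846 CPM in Meis1-flox/VE-Cre EMP against 6.30 to 213 in WT, and to 8201 to 36622 CPM in Meis1-flox/VE-Cre Megakaryocytes against 21.9 to 6664 in WT, without overlap, and their part in the Gfi1b values, which erythroid cells also express, was not tested. In Myeloid, Gfi1 was 1.15, 1.56 and 1.27 CPM, all above the WT range of 0 to 1.10, with a log2 difference of 1.22 (SE 0.49, edgeR adjusted p = 0.271) from 27 WT and 41 Meis1-flox/VE-Cre UMIs in all. Mast cell genes (Cma1 at 0) stood at 9.18 to 18.5 CPM there against 0.706 to 5.34 in WT, and their part in this value was not tested. Thinned to 5000 UMIs, 0 WT Myeloid cells and a mean of 0.619% of Meis1-flox/VE-Cre Myeloid cells had a Gfi1 UMI, with an exact permutation p of 0.0179, the smallest that 5 against 3 libraries can give, and 0.214 after adjustment over 12 shares. In EHT the share with Gfi1 was 20.5% ± 4.94 in WT and 16.8% ± 2.93 in Meis1-flox/VE-Cre (SD, n = 5 and 3, exact permutation p = 0.268).

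Hdac1 was the only member called between genotypes. In pre-HE it was 75.6, 51.4, 71.3, 78.3 and 135 CPM in WT 1 to WT 5 and 188, 215 and 265 CPM in Meis1-flox/VE-Cre 1 to 3. All 3 lay above all 5 WT libraries, and Hdac1 was higher by 1.495 on the log2 scale (SE 0.25, edgeR adjusted p = 0.00456), 1 of 4 members tested beside 0.489% of all genes (0.353% higher). In EMP it was 63.1, 66.9, 50.4, 57.8 and 96.0 CPM in WT and 114, 114 and 122 CPM in Meis1-flox/VE-Cre, a difference of 0.86 (SE 0.17, edgeR adjusted p = 0.0349), 1 of 5 members beside 4.74% of all genes (2.68% higher). WT 5, the only shallow WT library, was the highest WT value both times, and the EMP call was lost without any 1 of the Meis1-flox/VE-Cre libraries (0.81 to 0.88 on the log2 scale). Myeloid genes moved with both calls, at 14.8 to 33.5 CPM in Meis1-flox/VE-Cre pre-HE (Csf1r and Ptprc at 0) against 0 to 9.34 in WT and at 1936 to 2182 CPM in Meis1-flox/VE-Cre EMP (none at 0) against 1095 to 1518 in WT. Mast cell genes (3 markers, Mcpt8 at 0) moved in EMP too, at 202 to 284 against 47.1 to 139 CPM, as did the erythroid genes given above. All these lists were without overlap in pre-HE or EMP, and their part in the Hdac1 values was not tested.

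Depth moved with this result. In all 10 types Hdac1 in WT 5 and the Meis1-flox/VE-Cre libraries, the 4 with medians under 20000 UMIs per cell, lay above WT 1 to WT 4 without overlap, for example at 130 to 141 against 60.0 to 87.7 CPM in vEC_1. Of all genes with at least 20 mean CPM, 18.8%, 21.3%, 19.2% and 12% were split that cleanly in vEC_1 to vEC_4, 14% in aEC, 6.51% in pre-HE, 12% in EHT, 16.1% in EMP, 17.8% in Myeloid and 7.41% in Megakaryocytes. Against WT 5 alone the difference in pre-HE was 0.72 and in EMP 0.31, and with depth class as a covariate 0.72 and 0.30, none of them called, but a lost call with 1 WT library as the control says little. Leaving out WT 5 called Hdac1 in 9 of 10 types. Within the shallow libraries pre-HE held 188 to 265 CPM of Hdac1 in Meis1-flox/VE-Cre against 135 in WT 5, whose value rests on 16 cells. Depth differed there too, with pre-HE medians of 6413, 5978 and 6477 UMIs in Meis1-flox/VE-Cre 1 to 3 and 8851.5 in WT 5. Depth and genotype cannot be told apart in these libraries. Kdm1a was split the other way, lower in the 4 shallow libraries without overlap in 6 of 10 types, and Gfi1 and Hdac2 in none. Gfi1b was split in Myeloid, at 2.45 to 7.89 CPM in the shallow libraries against 0.485 to 2.23 in WT 1 to WT 4. Rcor1 was split in vEC_4, at 35.6 to 43.6 against 43.9 to 50.6 CPM.

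**Figure D5:**
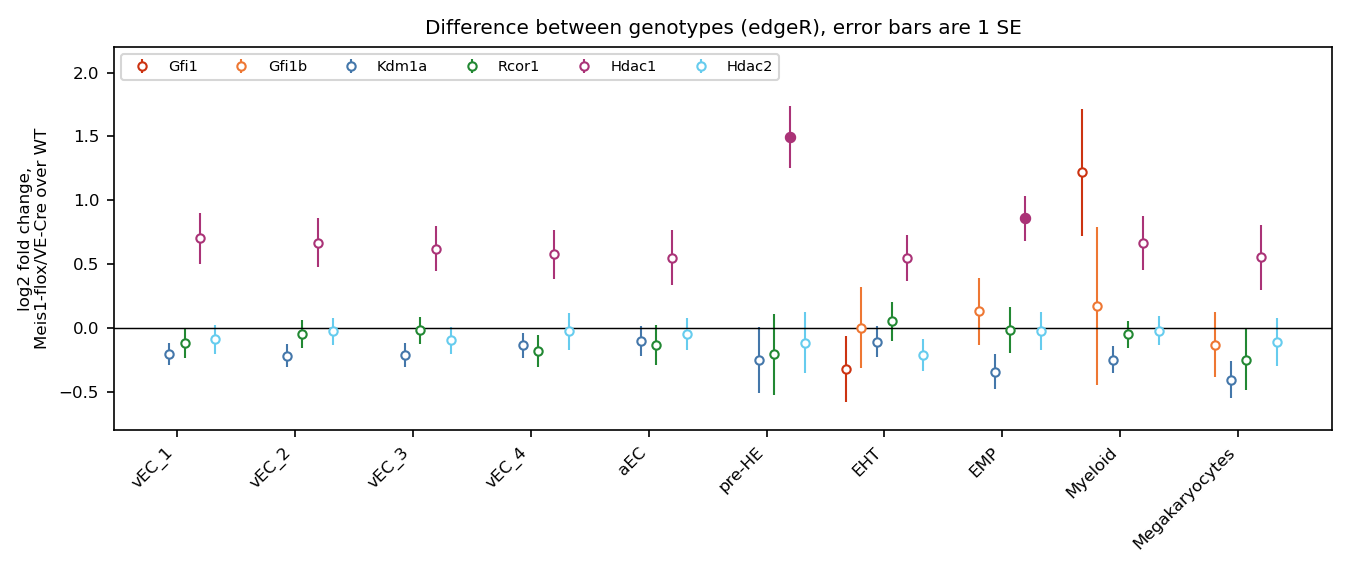
log2 fold change between Meis1-flox/VE-Cre and WT from edgeR for each member in each cell type where it could be tested; points are estimates, bars are 1 SE, and filled points passed the threshold. Hdac1 lay above 0 in all 10 types and was called in pre-HE (1.495) and EMP (0.86), while Kdm1a lay below 0 in all 10 and Gfi1b near 0.

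In the other types no member was called, beside 3.26% of genes in Myeloid, 0.206% in Megakaryocytes, 0.0187% in vEC_2 and 0% in vEC_1, vEC_3, vEC_4 and aEC. Kdm1a had differences from -0.40 (SE 0.14) in Megakaryocytes to -0.10 (SE 0.12) in aEC. Among the genes called in the wider lists, Meis1 was lower in EMP at -1.20 (SE 0.17, edgeR adjusted p = 0.00663) and Runx1 was lower in Myeloid at -0.43 (SE 0.10, edgeR adjusted p = 0.0538).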

How the data were processed

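Libraries were prepared from CD31+ AGM cells with the 10X 3′ v3 chemistry; per the labels, reads were processed with Cell Ranger 3.0.2 on mm10. The authors deposited UMI counts per gene and cell, antibody tag counts, and a table giving each cell's library and named cluster; their filters left cells with at least 2001 genes in the file. Counting strand is not given in the sources used here, and Gfi1b, Kdm1a and Rcor1 overlap other annotated genes. Members and gene lists were chosen with earlier results of these data known.

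Deposited counts were summed per library and cell type (10 cells or more) and fitted over all genes passing filterByExpr with edgeR 4.0.16 (TMM, quasi-likelihood F test, Benjamini-Hochberg, threshold 0.1) in R 4.3.3, with library as a block for steps between types. The study tested single cells; here pools of embryos are the unit, and whether pools came from separate litters is not stated. SE is the log2 change over the square root of F. Cells were thinned to 5000 UMIs for shares and co-detection, intervals are 95% Clopper-Pearson, and a count of 0 allows 3. Doublets were called with scanpy 1.11.5 and kept. Named list genes were up to 3 highest and 3 lowest among those called; some are not reported here. On simulated counts for EHT genotypes 89.5% of 200 genes changed by 1.5 were found, with 14.4% false calls. Smaller changes were not simulated, so this gives no power for differences the size of those of Gfi1 and Gfi1b in EHT. Alternatives were DESeq2 1.42.0, other filters and scalings, depth terms, a replicate block and leaving out libraries. Sequences and positions came from RefSeq tables of GRCm38.p6.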

Additional observations from a re-analysis of the deposited data

Results flagged for a closer look

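Among 47 gene and cell type groups of WT libraries with enough counts, 5 had a library far from the rest, where chance gives about 1 in 20. WT 1 stood apart for Gfi1 in EMP at 4.29 CPM (others 0.484 to 1.40) and for Rcor1 in Megakaryocytes at 77.4 CPM (others 48.7 to 52.9). WT 5, the shallow WT library, stood apart for Gfi1b in Myeloid at 7.89 CPM (others 0.485 to 2.23), for Kdm1a in vEC_2 at 159 CPM (others 192 to 205) and for Hdac1 in Myeloid at 107 CPM (others 50.8 to 60.7).

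The Hdac1 steps around pre-HE differed between genotypes. From aEC to pre-HE the log2 step was 0.84, 0.59 and 1.13 in Meis1-flox/VE-Cre and -0.17, -0.61, 0.37, 0.20 and -0.05 in WT, a difference of 0.90. From pre-HE to EHT it was -0.47, -0.96 and -1.38 against a WT mean of 0.04, a difference of -0.98. Each had an exact permutation p of 0.0179, the smallest that 5 against 3 libraries can give, and 0.268 after adjustment over 30 comparisons, so neither passed. Both share the pre-HE values, which rest on 15 to 33 cells in the Meis1-flox/VE-Cre libraries.

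Outside the genes compared, the Cre row (CreERT2) held 34 UMIs in 33 of 6745 Meis1-flox/VE-Cre cells and 0 in 8423 WT cells.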

How the results depend on the processing

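Replicate 3 of WT was too thin for Megakaryocytes. Of 2 member calls between genotypes, a Bonferroni adjustment left 1, DESeq2 gave 4 and no filter gave 9; a depth covariate, depth class as a covariate (chosen after seeing the data) and WT 5 alone as control each gave 0; leaving out libraries gave 1 to 10. Blocking replicate numbers 1 to 3 gave 12 and the same libraries unblocked 9, but in none of 5 types did all same-numbered pairs correlate over 0.1 (EHT -0.02, 0.14 and 0.14; vEC_1 0.05, 0.40 and 0.29), so numbers were not taken as pairs, although in vEC_1 and aEC each library correlated best with its own number. Of 11 step calls Bonferroni left 5 and the other alternatives 8 to 14, with 11 on leaving out any WT library, though without WT 2, 3 or 5 an Rcor1 step took the place of Hdac1 between EHT and EMP. Counting co-detection from 2 UMIs gave 0 in EHT, and leaving out libraries 0.42 to 0.58 for the ratio of 0.51.

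Small genotype differences turned sign. With a depth covariate, depth class and WT 5 alone, in that order, Gfi1 in EHT became 0.20, 0.18 and 0.17, Gfi1b in EHT -0.33, -0.29 and -0.29, in EMP -0.58, -0.50 and -0.49, in Myeloid -1.40, -1.34 and -1.32; in Megakaryocytes the last 2 gave 0.0016 and 0.0024. Gfi1b in EHT was also -0.036 by totals, -0.030 without the filter, -0.044 without doublets and -0.15 with or without the block; thinning gave -0.034 in EMP and 0.082 in Megakaryocytes. Without single libraries Gfi1b ranged from -0.18 to 0.20 in EHT, -0.072 to 0.32 in EMP, -0.29 to 0.14 in Megakaryocytes and -0.12 to 0.97 in Myeloid. The cause was not tested. Of all alternative values, 480 kept direction and side, 25 kept direction but lost a call, 30 turned direction and 14 counts or ratios moved. Outside EHT, Gfi1 rests on few UMIs, so depth limits its values there.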
